A study of Rattus norvegicus with 59 samples.

Results

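Rab38, Add3 and Dusp5 are 3 genes that genetic studies of the Fawn-Hooded Hypertensive rat place in its kidney-disease regions. Every array probe annotated with 1 of these 3 symbols was taken, which gave 1 probe for each gene, 3 of 22523 probes and 3 of the 13337 genes with a named probe. The genes were chosen by name. All 3 lie on rat chromosome 1. Add3 and Dusp5 are close neighbours, with the protein-coding genes Mxi1 and Smndc1 as the 2 between them, whereas 1538 protein-coding genes separate Rab38 from Add3.

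As background, Rab38 is a small GTPase that directs membrane traffic to lysosome-related organelles such as melanosomes. Fawn-Hooded rats carry a loss-of-function allele of it, which lightens the coat, and in the kidney the protein takes part in the uptake of filtered albumin by the proximal tubule. Add3 encodes gamma-adducin, which caps actin filaments and fastens them to spectrin under the plasma membrane. Dusp5 encodes a nuclear phosphatase that removes phosphate from the kinase ERK and is itself induced by ERK signalling. Both Add3 and Dusp5 have been studied in these rats as genes of the myogenic response, the constriction of renal arterioles when pressure rises.

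The tested rats were offspring of Fawn-Hooded Hypertensive dams whose drinking water held 150 mg/L pyrrolidine dithiocarbamate (PDTC), an inhibitor of the transcription factor NF-kB, from 2 weeks before birth until 4 weeks after it. The rats they were set against were untreated, of the same strain, age and sex. At 2 days there were 4 PDTC males and 4 PDTC females, against 5 untreated males and 5 untreated females. At 2 weeks there were 4 PDTC males and 6 PDTC females, against 6 untreated males and 5 untreated females. As adults each of the 4 groups held 5 rats, and the males were 36 weeks and the females 42 weeks old, so in adults sex and age in weeks cannot be told apart. All 59 rats were of the hypertensive strain, so the values describe these alleles and give no comparison with another strain, and a change of the protein cannot be read from an RNA level. The labels do not say which rats shared a dam, so the p-values measure the spread between these rats only.

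Promoters are shown because PDTC is an inhibitor of a transcription factor. A second reason is that all 3 RNA levels differed between adults and 2-week pups after the quantile normalization described below. Of the 3 genes 2, Add3 and Dusp5, matched the promoter table used, and Rab38 did not. The sequences are those of RefSeq on the assembly GRCr8, 250 bases up to the transcription start on the plus strand, at chr1:262152518-262152767 for Add3 and chr1:262543524-262543773 for Dusp5. Capitals mark CArG boxes, the elements that serum response factor binds.
Add3 promoter: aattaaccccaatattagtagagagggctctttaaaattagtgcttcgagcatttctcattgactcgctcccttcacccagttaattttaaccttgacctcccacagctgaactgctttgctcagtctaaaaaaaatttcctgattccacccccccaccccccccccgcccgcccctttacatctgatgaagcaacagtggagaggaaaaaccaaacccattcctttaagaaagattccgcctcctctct
Dusp5 promoter: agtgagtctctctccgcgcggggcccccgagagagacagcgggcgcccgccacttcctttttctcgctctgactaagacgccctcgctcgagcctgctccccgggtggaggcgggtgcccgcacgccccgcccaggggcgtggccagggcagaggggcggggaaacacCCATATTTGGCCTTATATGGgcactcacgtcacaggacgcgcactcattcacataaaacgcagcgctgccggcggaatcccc
The Dusp5 window holds 2 CArG boxes side by side, at -82 to -73 and -72 to -63 from the start, and they do not overlap. Of 33469 rat promoter windows of this length, 1.5% hold a CArG box on either strand and 7 windows (0.0209%) hold at least 2. The Add3 window holds 0. The consensus kB site bound by NF-kB occurs on either strand in 6.33% of the windows and at 0 positions in both of these windows. The Dusp5 window has 67.2% G and C and the Add3 window 46.4%, against a median of 51.2% over all windows. A match is a description of letters, and a missing match says nothing of binding outside or within the window.

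Levels are log2 intensities after background correction and quantile normalization of the 59 arrays, and a probe counts as above background on an array when its signal exceeds the array's background at a one-sided p under 0.05. A call is a limma p-value under 0.05 after Benjamini-Hochberg adjustment over all probes tested in that comparison. Array background levels were 59.92 to 136.6 and median signals 67.78 to 202.7 in the scanner's units, with 9139 to 12488 probes above background. Pups lay on slides 1 to 6 and adults on slides 7 to 10. The exception was untreated 2-week male 6, on slide 8. For every gene and list, age and slide therefore cannot be told apart where adults are compared with 2-week pups. The tissue label was borne out by its markers: at each age 10 of 10 proximal tubule, 8 of 8 collecting duct, 5 of 6 loop and distal tubule and 5 of 6 podocyte markers with a probe were above background on at least 50% of the arrays.

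**Figure D1:**
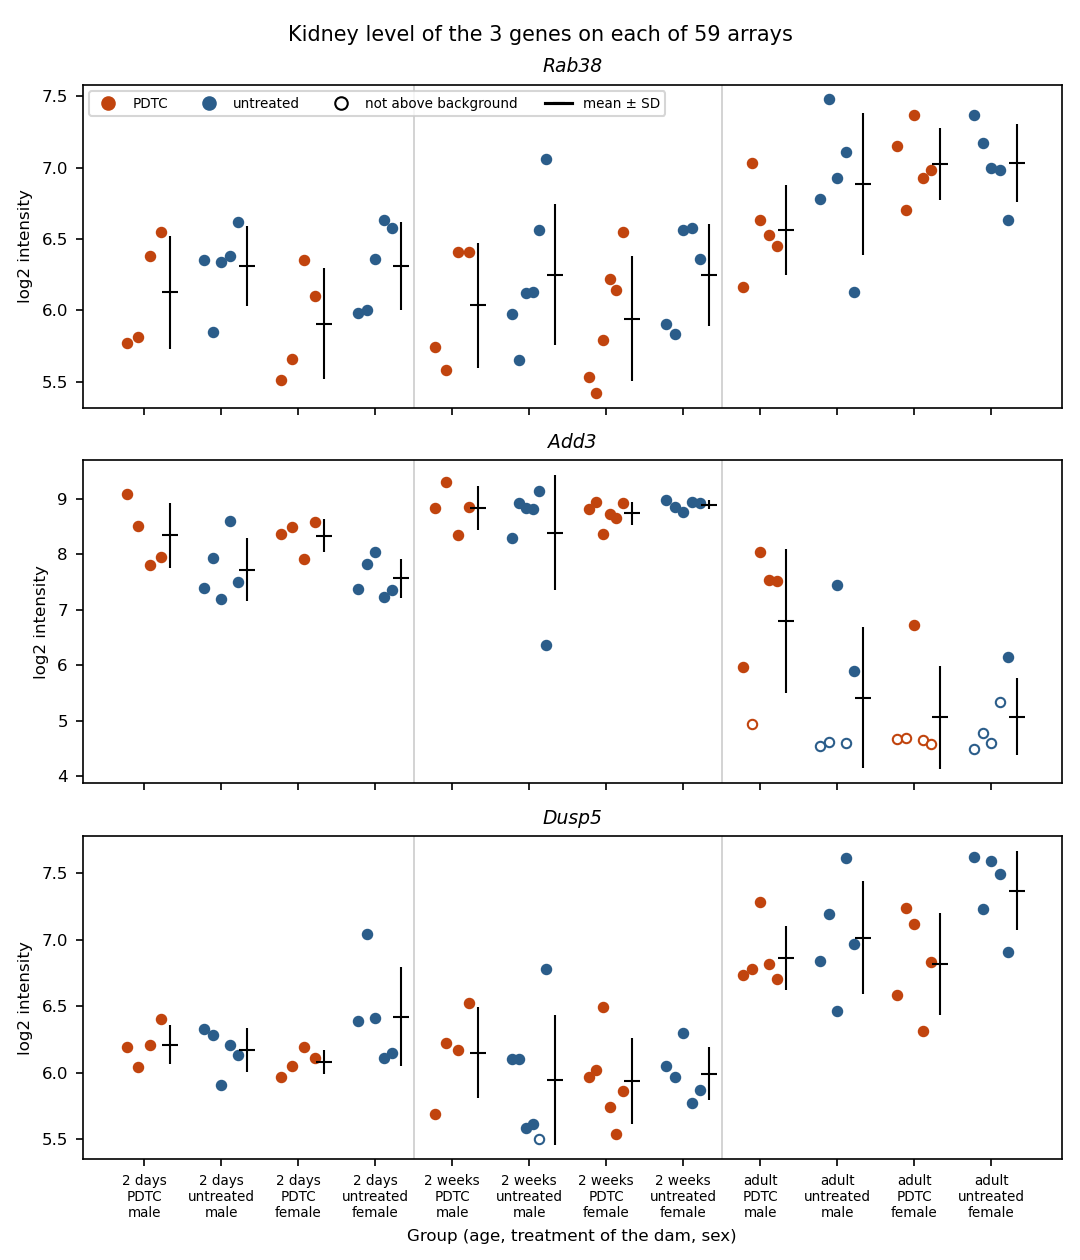
Log2 intensity of Rab38, Add3 and Dusp5 (vertical axes) on each of the 59 arrays, by age, treatment and sex, with PDTC groups in orange, untreated groups in blue, open symbols for arrays not above background, and group means ± SD in black. Add3 spans 8.35 to 9.31 in PDTC kidneys at 2 weeks and lies at 4.49 to 8.05 in adults, where most symbols are open, whereas adult Rab38 and Dusp5 lie toward the top of their panels.

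The 3 probes stood at different distances from background. Rab38 was above background on all arrays but only slightly: its median signal was 1.73 times the array's background in 2-day pups, 1.67 times in 2-week pups and 1.49 times in the adult rats. Dusp5 stood at 1.8, 1.61 and 1.52 times background at the same ages, and missed the background limit on 1 array, untreated 2-week male 5. Add3 stood in pups at 4.03 times background at 2 days and 7.11 times at 2 weeks, but stood at 1.02 times in adults, above background on 8 of 20 arrays.

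Add3 had the widest within-group spread of the 3 probes. Its within-group SD was 0.466 among 2-day pups, 0.597 among 2-week pups and 1.07 among adults, at the 94.1st, 97.2nd and 99.2nd percentile of the tested probes of each age. The adult value compares with a median SD of 0.393 over all tested probes. Rab38 lay at the 83.7th, 91.9th and 40.6th percentile and Dusp5 at the 56.8th, 82.9th and 39.6th.

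Ordered by group mean, Rab38 ran from 7.03 in adult PDTC females, 7.03 in adult untreated females and 6.89 in adult untreated males down to 5.94 in 2-week PDTC females and 5.9 in 2-day PDTC females. Its 4 adult groups came first, and then the 4 untreated pup groups, at 6.25 to 6.31, before the 4 PDTC pup groups. Add3 was highest in 2-week untreated females, at 8.89 ± 0.0822 (SD, n = 5), and lowest in adult PDTC females, at 5.07 ± 0.929 (SD, n = 5), with its 4 groups of 2 weeks first and its 4 adult groups last. Dusp5 was highest in adult untreated females, at 7.37 ± 0.3 (SD, n = 5), and lowest in 2-week PDTC females, at 5.93 ± 0.322 (SD, n = 6). In each of the 3 orders, every pair of neighbouring groups overlapped in range.

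Rab38 RNA was called higher in adults than at 2 weeks and was not called between 2 weeks and 2 days. In PDTC kidneys its lowest, median and highest levels were 5.51, 5.96 and 6.55 at 2 days (n = 8), 5.42, 5.96 and 6.55 at 2 weeks (n = 10) and 6.16, 6.81 and 7.37 in adults (n = 10). In untreated kidneys they were 5.85, 6.35 and 6.63 at 2 days (n = 10), 5.65, 6.13 and 7.06 at 2 weeks (n = 11) and 6.13, 6.99 and 7.48 in adults (n = 10). The adult arrays shifted upward as a body, yet adults and 2-week pups overlapped in both treatments. The one 2-week kidney at 7.06 was untreated male 6, the pup on an adult slide.

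Adults exceeded 2-week pups in Rab38 by 0.80 ± 0.158 (log2 ± SE, limma adjusted p = 0.000155) in PDTC rats, a fold of 1.75, and 10 of 10 adults lay above the 2-week mean. In untreated rats the difference was 0.71 ± 0.176 (limma adjusted p = 0.00134), a fold of 1.64, with 9 of 10 adults above the 2-week mean. Most of the array differed between adults and 2-week pups. The call was made for 67.7% of all probes tested in PDTC rats and 64% in untreated rats, so a call here is common. By direction, 32.7% of probes were called higher and 35% lower in PDTC adults, and 31.7% higher and 32.3% lower in untreated adults. Before normalization the Rab38 signal was not brighter in adults, at 1.33 to 1.68 times background in PDTC adults against 1.38 to 2.09 times in PDTC pups of 2 weeks. Its rank was higher: the median adult array placed it at the 66.4th percentile of all probes and the median 2-week array at the 58.9th. With arrays scaled to 1 median in place of quantile normalization, the differences shrank to 0.0992 (limma adjusted p = 0.569) in PDTC rats and 0.0255 (limma adjusted p = 0.881) in untreated rats. That scaling moved the median of all probes by -0.658 and -0.574 in the same comparisons, and relative to those medians Rab38 differed by 0.757 and 0.599. With slide as a fixed term the untreated difference was -0.0553 (limma adjusted p = 0.967), an estimate that rests on the 1 pup on slide 8. Age and slide cannot be told apart here.

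Between 2 weeks and 2 days Rab38 made no call, with log2 differences of -0.026 ± 0.183 (limma adjusted p = 0.94) in PDTC rats and -0.064 ± 0.155 (limma adjusted p = 0.807) in untreated rats. In these comparisons 38.4% of all probes were called in PDTC rats, 18% higher and 20.4% lower, and 37.8% in untreated rats, 16.9% higher and 20.9% lower. Within slides the 2-week kidneys were the lower ones on 4 of 5 slides in PDTC rats, between -0.29 and 0.13, and on 6 of 6 in untreated rats, between -0.44 and -0.01.

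PDTC pups tended to lower Rab38 values, without a call. PDTC minus untreated was -0.29 ± 0.15 (limma adjusted p = 0.349) at 2 days, -0.26 ± 0.179 (limma adjusted p = 0.825) at 2 weeks and -0.16 ± 0.156 (limma adjusted p = 0.851) in adults. Ranges overlapped at each age, and 5 of 8, 7 of 10 and 6 of 10 PDTC kidneys lay below the untreated mean. At 2 days the 4 PDTC females had 5.51, 5.66, 6.35 and 6.1, against 5.98, 6.0, 6.36, 6.63 and 6.58 in the 5 untreated females. PDTC kidneys were the lower ones on 4 of 5 slides at 2 days, between -0.84 and 0.01. They were lower on 4 of 6 at 2 weeks, between -0.48 and 0.09, and on 3 of 4 in adults, between -0.53 and 0.14. The -0.84 set 1 PDTC pup against 1 untreated pup on slide 1. Slide 6 held untreated 2-day male 5 (6.62) and females 4 and 5 (6.63 and 6.58) but no 2-day PDTC pup. Over the planned settings the 2-day estimate ran from -0.396 to -0.131.

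Among adult PDTC rats, Rab38 was 7.15, 6.7, 7.37, 6.93 and 6.98 in the 5 females, against 6.16, 7.03, 6.63, 6.53 and 6.45 in the 5 males. All 5 females exceeded the male mean and the ranges overlapped through 1 male at 7.03. The difference was 0.47 ± 0.221 with limma adjusted p = 0.354, where 0.752% of probes were called, and it had the same sign on 4 of 4 slides. In untreated adults females minus males was 0.14 ± 0.221 (limma adjusted p = 0.93), where 1.34% of probes were called.

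Of the Rab GTPases of lysosome-related organelles and their partners, 13 were tested between adults and 2-week pups. In PDTC rats 4 were called higher and 3 lower, and in untreated rats 4 higher and 2 lower. Over all probes 32.7% were called higher and 35% lower in PDTC rats, and 31.7% and 32.3% in untreated rats. The list medians were 0.0944 and 0.109 against -0.000479 and 0.00269 over all probes. The adult level of Myo5a, the motor that carries melanosomes, was lower by -1.31 ± 0.221 (limma adjusted p = 2.99e-05) in PDTC rats and -1.23 ± 0.191 (limma adjusted p = 1.03e-05) in untreated rats. Mlph, which links that motor to Rab27a, was higher by 1.49 ± 0.286 (limma adjusted p = 0.000121) and 1.31 ± 0.299 (limma adjusted p = 0.000649). Rab27b was lower by -0.7 and -0.47, and Rab9a, a GTPase of late endosomes, was higher by 0.55 and 0.67. With arrays scaled to 1 median the differences of Mlph were 0.51 and 0.42 and lost their calls, and those of Rab9a turned to -0.37 and -0.19. Of the list 6 and 4 members were then called lower with 0 higher. The shares of all probes given above are from quantile normalization and cannot be set beside these counts. That scaling moved the median of all probes by -0.658 in PDTC rats and -0.574 in untreated rats. Relative to those medians the list medians were 0.33 and 0.372. Of 17 subunits of the Hermansky-Pudlak complexes and their tethering partners, which build the organelles that Rab38 serves, 2 were called higher and 5 lower in each treatment. Hps6 was lower by -0.56 and -0.77, while Vps18 was higher by 0.53 and 0.6 and turned to -0.5 and -0.28 under median scaling.

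Between 2 weeks and 2 days 1 of the 13 Rab list genes was called higher and 1 lower in PDTC rats, and 1 higher and 2 lower in untreated rats, where 38.4% and 37.8% of all probes were called. Rab7a, the late endosome GTPase, was higher by 0.35 ± 0.0501 (limma adjusted p = 2.22e-05) and 0.29 ± 0.0892 (limma adjusted p = 0.0123). Rab27b was lower by -0.49 and -0.52. Under median scaling Rab7a kept its direction, at 0.39 and 0.36, and kept its call in PDTC rats, while in untreated rats the adjusted p was 0.248.

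Most genes listed for albumin uptake by the proximal tubule were called higher at 2 weeks. Of 13 tested genes, 9 were called higher and 1 lower at 2 weeks than at 2 days in PDTC rats, and 10 higher and 0 lower in untreated rats, with list medians of 0.525 and 0.513. Over all probes 18% were called higher and 20.4% lower in PDTC rats, and 16.9% higher and 20.9% lower in untreated rats, with medians of -0.00333 and -0.0108. Ctsl, a lysosomal protease, was higher by 1.01 ± 0.103 (limma adjusted p = 4.85e-07) in PDTC rats and 0.8 ± 0.103 (limma adjusted p = 2.34e-06) in untreated rats. Fcgrt, the receptor that recycles albumin, was higher by 0.53 and 0.55. The proton pump subunits Atp6v0a4 and Atp6v1b1 were higher by 0.82 and 0.83 in PDTC rats and by 0.92 and 0.76 in untreated rats. General proximal tubule markers were called higher too, 10 of 10 in PDTC rats and 8 of 10 in untreated rats. Of 8 collecting duct markers 6 were called higher and 0 lower in PDTC rats, and 5 higher and 1 lower in untreated rats. The part of either cell type in the differences of the uptake list was not tested. Rab38 itself made no call over the same interval. Between adults and 2-week pups 6 of the 13 uptake genes were called higher and 5 lower in PDTC rats, and 6 higher and 3 lower in untreated rats. Over all probes 32.7% were called higher and 35% lower there in PDTC rats, and 31.7% and 32.3% in untreated rats. With median scaling the counts of uptake genes called higher and lower were 0 and 6 in PDTC rats and 1 and 6 in untreated rats. Those counts cannot be set beside the shares of all probes above, which are from quantile normalization. That scaling moved the median of all probes by -0.658 and -0.574, and relative to it the list medians were 0.379 and 0.241.

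Pigment cell genes, looked at because Rab38 is best known from melanosomes, had 6 probes, of which 2 were above background on at least 50% of the arrays at each age. The list's mean level was 5.32 to 5.92 over 2-week arrays and 5.44 to 5.82 over adult arrays. Tyr, a melanin enzyme and a near neighbour of Rab38 on the chromosome, was too dim to be tested in either comparison of adults with 2-week pups.

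Add3 had the largest movement of the 3 genes: its level was higher at 2 weeks than at 2 days and at or near background in most adult kidneys. In PDTC kidneys its lowest, median and highest levels were 7.81, 8.43 and 9.09 at 2 days (n = 8), 8.35, 8.83 and 9.31 at 2 weeks (n = 10) and 4.59, 5.46 and 8.05 in adults (n = 10). In untreated kidneys they were 7.2, 7.44 and 8.61 at 2 days (n = 10), 6.36, 8.86 and 9.14 at 2 weeks (n = 11) and 4.49, 4.71 and 7.45 in adults (n = 10). No PDTC adult reached the lowest PDTC pup of 2 weeks. Untreated adults overlapped the untreated pups of 2 weeks only through untreated male 6, at 6.36, whereas the other 5 males of its group had 8.29 to 9.14.

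At 2 weeks Add3 exceeded its 2-day level by 0.45 ± 0.165 (limma adjusted p = 0.0397) in PDTC rats, a fold of 1.36, with 10 of 10 pups above the 2-day mean. In untreated rats the difference was 0.997 ± 0.259 (limma adjusted p = 0.00397), a fold of 2, with 10 of 11 pups above the 2-day mean. Within slides the 2-week kidneys were higher on 5 of 5 slides in PDTC rats, by 0.17 to 0.67, and on 6 of 6 in untreated rats, by 0.26 to 1.67. The call in PDTC rats was lost under several settings, with adjusted p-values up to 0.446, and the call in untreated rats was lost without slide 6 (0.8, limma adjusted p = 0.0715).

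Adults then stood below 2-week pups by -2.85 ± 0.336 (limma adjusted p = 3.11e-07) in PDTC rats, a fold of 0.138, and by -3.39 ± 0.352 (limma adjusted p = 4.09e-08) in untreated rats, a fold of 0.0951. All 10 adults of each treatment lay below the 2-week mean. In PDTC adults the probe was above background on 5 of 10 arrays and in untreated adults on 3 of 10, so the adult mean rests partly on values at the background limit. Before normalization its signal was 0.92 to 2.67 times background in PDTC adults against 5.44 to 12.57 times in PDTC pups of 2 weeks. The difference held its sign and call under median scaling, at -3.24 and -3.38, and in the authors' deposited log2 values, at a smaller -1.8 and -2.1. With slide as a fixed term it was -1.89 in untreated rats (limma adjusted p = 0.24), and in PDTC rats that fit gave no value because no slide held both ages.

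**Figure D2:**
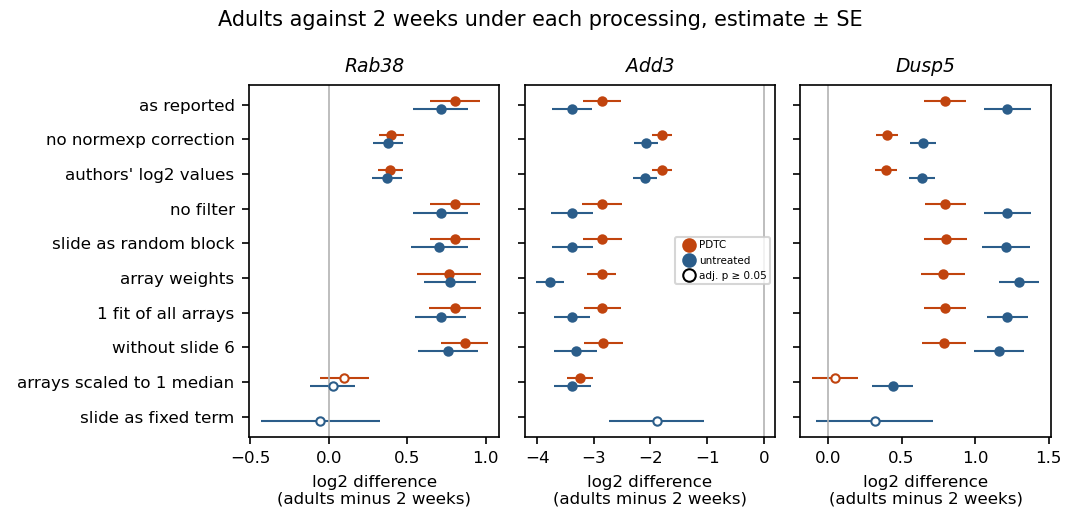
Log2 difference of adults minus 2-week pups (horizontal axes, estimate ± SE) for each gene under 10 ways of processing, in PDTC rats (orange) and untreated rats (blue), with open symbols where the limma adjusted p was 0.05 or more. Add3 stays between -3.77 and -1.79, while with arrays scaled to 1 median Rab38 (0.0992 and 0.0255) and PDTC Dusp5 (0.0471) come near 0 and untreated Dusp5 is 0.44 and still called, and slide as a fixed term is shown for untreated rats only.

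PDTC pups of 2 days had higher Add3 values than untreated pups, without a call. The PDTC males had 9.09, 8.51, 7.81 and 7.96 and the PDTC females 8.37, 8.49, 7.91 and 8.59. The untreated males had 7.39, 7.93, 7.2, 8.61 and 7.5 and the untreated females 7.37, 7.83, 8.04, 7.23 and 7.36. All 8 PDTC pups lay above the untreated mean, and the ranges overlapped, with 4 untreated pups above the lowest PDTC pup and the highest of them, male 4, at 8.61. The difference was 0.69 ± 0.202, a fold of 1.62 (limma adjusted p = 0.139). Of 13163 probes tested, 0% were called in this comparison, and 2085 had an unadjusted p under 0.05. Array weights gave 0.779 (limma adjusted p = 0.038), in a fit that called 373 of 13163 probes, 261 of them higher. Leaving out untreated male 4 gave 0.805 (limma adjusted p = 0.0339). Over the planned settings the estimate ran from 0.511 to 0.899, and the limma adjusted p reached 0.689. PDTC kidneys were the higher ones on 4 of 5 slides, by 0.24 to 1.14, and lower by -0.34 on slide 5, which held untreated male 4. Slide and treatment were not balanced, since slide 6 held untreated male 5 (7.5) and females 4 and 5 (7.23 and 7.36) but no 2-day PDTC pup. The estimates in males and females were 0.62 ± 0.286 (limma adjusted p = 0.437) and 0.77 ± 0.286 (limma adjusted p = 0.654), and their difference was 0.16 ± 0.404 (limma adjusted p = 1).

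At 2 weeks PDTC minus untreated was 0.14 ± 0.241 for Add3 (limma adjusted p = 0.893). In this comparison 0% of 13360 probes were called and 697 had an unadjusted p under 0.05. Without the low untreated male 6 it was -0.0587, with slide as a fixed term it was -0.0622, and PDTC kidneys were the lower ones on 5 of 6 slides. The change of the PDTC effect between 2 days and 2 weeks was -0.55 ± 0.333 (limma adjusted p = 1).

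Of the 8 adult arrays with Add3 above background, 4 were those of PDTC males. The PDTC males had 5.98, 4.94, 8.05, 7.53 and 7.52, with 4 of 5 above background, and the PDTC females 4.67, 4.69, 6.73, 4.66 and 4.59, with 1 of 5. The untreated males had 4.54, 4.62, 7.45, 4.6 and 5.9, with 2 of 5 above background, and the untreated females 4.49, 4.79, 4.6, 5.34 and 6.16, with 1 of 5. Each group mixed bright and dim arrays, and all 4 ranges overlapped. PDTC minus untreated was 1.38 ± 0.614 in males (limma adjusted p = 0.604) and -0.011 ± 0.614 in females (limma adjusted p = 0.997). The female minus male difference of these effects was -1.40 ± 0.868 (limma adjusted p = 0.665). PDTC males were the higher ones on 4 of 4 slides, by 0.92 to 2.93.

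Females minus males among PDTC adults was -1.74 ± 0.614 for Add3 (limma adjusted p = 0.216), with 1 of 5 females above background, so its size depends on the background step, and with all 5 females below the male mean and the females lower on 4 of 4 slides. A single fit of all 59 arrays gave the same estimate with limma adjusted p = 0.0116, and array weights gave -1.97 with limma adjusted p = 0.0309. Over all planned settings the estimate ran from -1.97 to -0.929, the smallest without normexp, and the limma adjusted p reached 0.435 with arrays scaled to 1 median. In untreated adults the difference was -0.35 ± 0.614 (limma adjusted p = 0.946). Since the females were 42 and the males 36 weeks old, sex and age cannot be told apart.

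**Figure D3:**
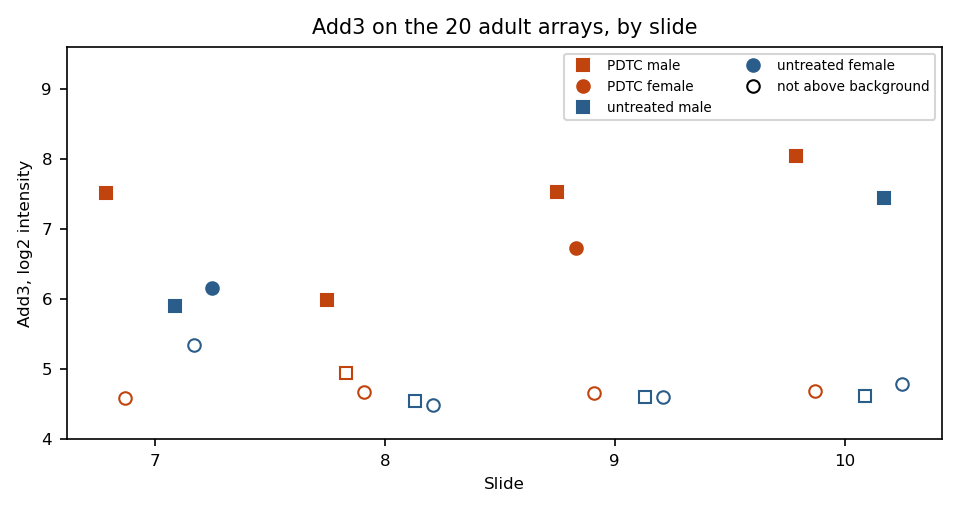
Add3 log2 intensity (vertical axis) on the 20 adult arrays, by slide (horizontal axis), with squares for males, circles for females, orange for PDTC, blue for untreated and open symbols for arrays not above background. A PDTC male is the brightest array on each of slides 7 to 10, between 5.98 and 8.05, and each slide also holds arrays below 4.8.

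Partners of Add3 in the spectrin-actin membrane skeleton were called in both directions, in shares to be read beside those of all probes. Of 14 tested in PDTC rats, 7 were called higher and 1 lower at 2 weeks than at 2 days, and of 13 tested in untreated rats, 2 higher and 1 lower, where 18% and 16.9% of all probes were called higher. Add2, which encodes beta-adducin, the partner subunit of the adducin heteromer, was higher by 0.94 ± 0.146 (limma adjusted p = 5.18e-05) in PDTC rats and 1.05 ± 0.176 (limma adjusted p = 6.09e-05) in untreated rats. Tmod1, which caps the other end of actin filaments, was higher by 0.99 and 1.01, whereas the tropomyosin Tpm1 was lower by -0.94 and -0.73. These 3 genes kept direction and call with arrays scaled to 1 median.

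Between adults and 2-week pups 3 of 14 members were called higher and 7 lower in PDTC rats, and 3 of 13 higher and 7 lower in untreated rats, with list medians of -0.426 and -0.527. Of all probes 67.7% and 64% were called there in either direction. By direction 32.7% were called higher and 35% lower in PDTC rats, and 31.7% and 32.3% in untreated rats. The list thus held a larger share of lower calls and a smaller share of higher calls than the array, a difference that was not tested. Add2 was lower in adults by -0.97 ± 0.145 (limma adjusted p = 7.15e-06) in PDTC rats and -1.14 ± 0.17 (limma adjusted p = 6.39e-06) in untreated rats. Tpm3 was lower by -0.7 and -0.67, and Epb41, the protein 4.1 that joins spectrin to actin, was higher by 0.64 and 0.65. Median scaling left Add2 lower, at -0.79 and -0.83, and Tpm3 lower, at -1.68 and -1.58, and took Epb41 to 0.01 and 0.03 without a call. With that scaling the medians of the list were -0.433 and -0.471 relative to all probes. Erythroid markers also differed over the same interval, and their mean level was 6.76 to 7.66 on adult arrays against 8.28 to 8.95 on 2-week arrays. Epb42, a red cell membrane gene held by both lists, went the other way, at 1.16 and 0.77. The part of red cells in these differences was not tested. Among PDTC adults Tmod1 was called lower in females by -1.28 ± 0.249 (limma adjusted p = 0.0129) and among untreated adults by -1.11 ± 0.249 (limma adjusted p = 0.024), the only skeleton gene called in either comparison of females with males.

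By its medians Dusp5 was lowest at 2 weeks and highest in adults. In PDTC kidneys its lowest, median and highest levels were 5.97, 6.15 and 6.4 at 2 days (n = 8), 5.54, 5.99 and 6.52 at 2 weeks (n = 10) and 6.31, 6.8 and 7.28 in adults (n = 10). In untreated kidneys they were 5.91, 6.25 and 7.04 at 2 days (n = 10), 5.5, 5.97 and 6.78 at 2 weeks (n = 11) and 6.46, 7.21 and 7.62 in adults (n = 10). Adults overlapped 2-week pups slightly in both treatments. The highest 2-week value, 6.78, was again that of untreated male 6 on the adult slide, so that this kidney lay on the adult side of the other 5 males of its group in all 3 genes.

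Adults exceeded 2-week pups in Dusp5 by 0.80 ± 0.141 (limma adjusted p = 5.06e-05) in PDTC rats, a fold of 1.74, and by 1.22 ± 0.16 (limma adjusted p = 1.15e-06) in untreated rats, a fold of 2.33. All 10 adults of each treatment lay above the 2-week mean. As with Rab38, the signal before normalization was no brighter, at 1.3 to 1.87 times background in PDTC adults against 1.45 to 2.19 times in PDTC pups of 2 weeks. The median adult array placed the probe at the 66.2nd percentile of all probes and the median 2-week array at the 57.3rd. With arrays scaled to 1 median the difference was 0.0471 (limma adjusted p = 0.793) in PDTC rats and 0.44 (limma adjusted p = 0.00725) in untreated rats, or 0.705 and 1.01 relative to the median of all probes. With slide as a fixed term it was 0.317 (limma adjusted p = 0.747) in untreated rats.

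Dusp5 at 2 weeks was not called different from its 2-day level. In PDTC rats 2 weeks minus 2 days was -0.10 ± 0.119 (limma adjusted p = 0.559), and in untreated rats it was -0.33 ± 0.142 (limma adjusted p = 0.0752), with 9 of 11 pups of 2 weeks below the 2-day mean. Untreated 2-week kidneys were lower on 6 of 6 slides, by -0.22 to -0.94. The untreated difference was called with slide as a fixed term (-0.419, limma adjusted p = 0.000625), with slide as a random block (-0.367, limma adjusted p = 0.0111), with array weights (-0.385, limma adjusted p = 0.00651) and without untreated 2-week male 6 (-0.412, limma adjusted p = 0.00656). The largest adjusted p over the settings that kept all arrays or left out a slide was 0.123.

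PDTC adults tended to less Dusp5 than untreated adults. The PDTC females had 6.58, 7.24, 7.12, 6.31 and 6.83, against 7.62, 7.23, 7.59, 7.49 and 6.91 in the untreated females. The PDTC males had 6.73, 6.78, 7.28, 6.82 and 6.7, against 6.84, 7.19, 6.46, 7.61 and 6.97 in the untreated males. All 5 PDTC females lay below the untreated female mean, with overlapping ranges. The difference was -0.55 ± 0.218 in females (limma adjusted p = 0.798), -0.15 ± 0.218 in males (limma adjusted p = 0.852) and -0.35 ± 0.154 over both sexes (limma adjusted p = 0.799), where 0% of 11701 probes were called and 668 had an unadjusted p under 0.05. PDTC kidneys were the lower ones on 3 of 4 slides. At 2 days the differences were -0.34 ± 0.15 in females (limma adjusted p = 0.666) and 0.04 ± 0.15 in males (limma adjusted p = 0.955), and at 2 weeks 0.07 ± 0.15 over both sexes (limma adjusted p = 0.91).

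Of the other MAP kinase phosphatases 5 of 10 were bright enough to be tested between adults and 2-week pups. Of these 2 were called higher and 1 lower in PDTC rats, against 1 higher and 1 lower in untreated rats. Of all probes 67.7% were called in PDTC rats and 64% in untreated rats. Dusp1, the immediate early relative of Dusp5, was higher in adults by 1.37 ± 0.176 (limma adjusted p = 9.2e-07) in PDTC rats and 0.77 ± 0.151 (limma adjusted p = 0.000153) in untreated rats. Dusp9 was lower by -0.64 and -0.63. Median scaling left Dusp1 at 0.62, called, in PDTC rats and at 0.02, not called, in untreated rats. That scaling moved the median of all probes by -0.658 and -0.574. At 2 weeks against 2 days Dusp9 was lower by -1.37 ± 0.102 (limma adjusted p = 8.33e-09) and -1.16 ± 0.0891 (limma adjusted p = 1.27e-09), and Dusp1 was higher by 0.3 and 0.58.

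Feedback and target genes of ERK were called in both directions, as was the array, where 67.7% of probes were called in PDTC rats and 64% in untreated rats. Of 15 tested between adults and 2-week pups, 7 were called higher and 5 lower in PDTC rats, and 7 higher and 3 lower in untreated rats, with list medians of -0.0573 and 0.141. The transcription factor gene Junb was higher by 2.28 ± 0.189 (limma adjusted p = 2.18e-09) in PDTC rats and 2.4 ± 0.216 (limma adjusted p = 4.2e-09) in untreated rats, and Errfi1, a feedback inhibitor of the EGF receptor, by 2.38 and 1.57. With median scaling Junb was higher by 1.4 and 1.64 and Errfi1 by 1.65 and 0.84, all called. The counts over the list were then 3 higher and 8 lower in PDTC rats and 4 higher and 6 lower in untreated rats. The 67.7% and 64% of all probes are from quantile normalization and cannot be set beside them. That scaling moved the median of all probes by -0.658 and -0.574, and relative to it the list medians were 0.201 and 0.268. In the first 2 weeks Etv4, a transcription factor of ureteric bud branching, was lower by -3.01 ± 0.166 (limma adjusted p = 1.49e-10) and -3.18 ± 0.085 (limma adjusted p = 7.47e-17). Of 8 tested kinases and adaptors upstream of ERK, 2 were called higher and 4 lower in PDTC adults than in PDTC pups of 2 weeks, and 1 higher and 4 lower in untreated rats. The adaptor Shc1 was lower by -1.29 and -1.56, the GTPase Nras by -0.84 and -0.8 and the kinase Map2k1 by -0.63 and -0.72, and each stayed lower under median scaling.

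In the main fits neither the 3 genes nor their partners were called for PDTC at any age, and neither was any other probe. The share of the array called was 0% in each PDTC comparison, each difference of PDTC effects and each comparison of females with males in pups. With array weights 373 of 13163 probes were called for PDTC at 2 days over both sexes, 261 of them higher, Add3 among them. Over 27 tests of the 3 genes (3 ages, each sex and both together) 0 were called, 7 had an unadjusted p under 0.05, and the smallest limma adjusted p was the 0.139 of Add3 at 2 days. The 15 tests of differences between PDTC effects also gave 0 calls, with 0 at an unadjusted p under 0.05 and a smallest limma adjusted p of 0.665. At 2 days the gene with the smallest p was Myo5a among the Rab partners, at 0.6 ± 0.15 (limma adjusted p = 0.125), Dab2, an endocytic adaptor, among the albumin uptake genes, at 0.44 ± 0.12 (limma adjusted p = 0.138), and Tpm3 among the skeleton genes, at 0.25 ± 0.084 (limma adjusted p = 0.173). In pups 12 comparisons of females with males gave 0 calls and 0 with an unadjusted p under 0.05, and the smallest limma adjusted p was 0.971.

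**Figure D4:**
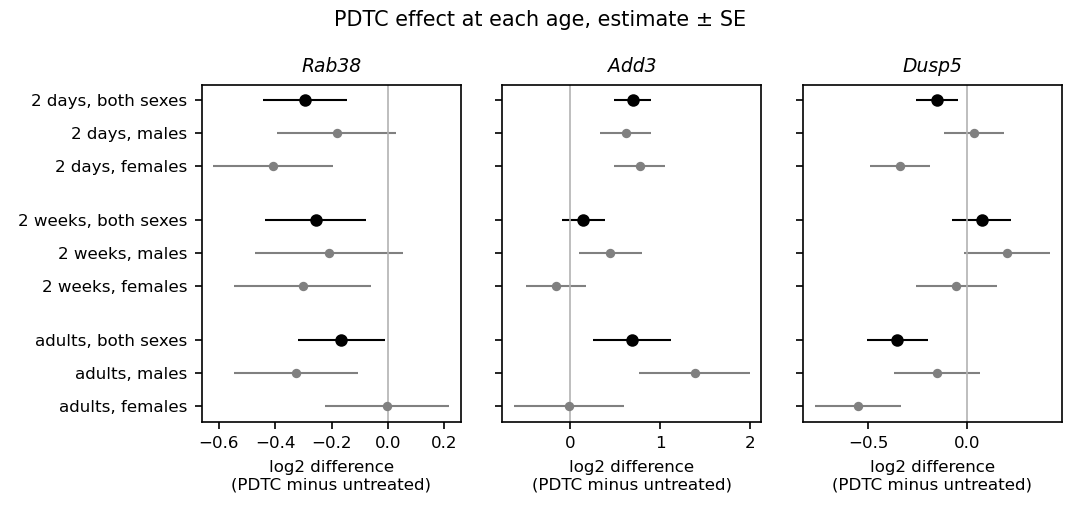
PDTC minus untreated log2 difference (horizontal axes, estimate ± SE) for each gene and age, over both sexes (black) and within males and females (grey). Rab38 estimates lie at or below 0, Add3 is highest in adult males at 1.38, and Dusp5 is lowest in adult females at -0.55.

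The leukocyte markers of the kidney also differed between adults and 2-week pups, and they stand here beside those differences of all 3 genes. Their mean level was 6.9 to 8.25 on adult arrays against 5.64 to 6.34 on 2-week arrays. In PDTC rats 6 of 7 were called higher and in untreated rats 7 of 7, where 32.7% and 31.7% of all probes were called higher. With arrays scaled to 1 median 5 and 6 of 7 were called higher, counts that these shares, from quantile normalization, cannot be set beside. Relative to all probes the list medians were then 1.47 in PDTC rats and 1.36 in untreated rats. In whole kidney, fewer cells of a type and less RNA per cell cannot be told apart, and the part of cell composition in these differences was not tested.

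The genes around the 3 loci were called in both directions. Around Rab38, 13 of the 20 nearest protein-coding genes with a probe were tested in PDTC rats and 14 in untreated rats. In each treatment 9 were called higher in adults than at 2 weeks and 2 lower, where 32.7% of all probes were called higher and 35% lower in PDTC rats and 31.7% and 32.3% in untreated rats. The nearest on either side, Ctsc, which encodes a lysosomal protease, and Tmem135, were higher by 0.44 and 0.36 in PDTC rats and by 0.36 and 0.37 in untreated rats, less than Rab38. Nox4, a NADPH oxidase of the kidney, was higher by 0.89 and 1.04 and Folh1, a folate hydrolase, by 1.09 and 1.28. Under median scaling the untreated differences were -0.47 for Ctsc, -0.52 for Tmem135, 0.13 for Nox4 and 0.39 for Folh1, and those in PDTC rats -0.41, -0.6, -0.09 and 0.12. That scaling moved the median of all probes by -0.574 in untreated rats and -0.658 in PDTC rats.

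Around Add3, 6 of 17 tested genes were called higher in adults and 6 lower in PDTC rats, and 5 of 16 higher and 6 lower in untreated rats, near the shares of the array. Sorcs3, a sorting receptor, was lower by -2.02 and -1.78, the kinase gene Slk by -1.46 and -1.46 and Stn1, a telomere protein gene, by -1.04 and -1.2. Xpnpep1, directly next to Add3, was higher by 0.37 and 0.36, and turned to -0.25 and -0.22 under median scaling. That scaling moved the median of all probes by -0.658 and -0.574. Add3 fell more than each of these neighbours, while Dusp5, 3 genes on, was higher in adults. Among adults Col17a1, a hemidesmosome collagen gene on the same stretch, was higher in females than in males by 2.3 ± 0.309 (limma adjusted p = 0.000233) in PDTC rats and by 2.94 ± 0.309 (limma adjusted p = 1.01e-05) in untreated rats.

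**Figure D5:**
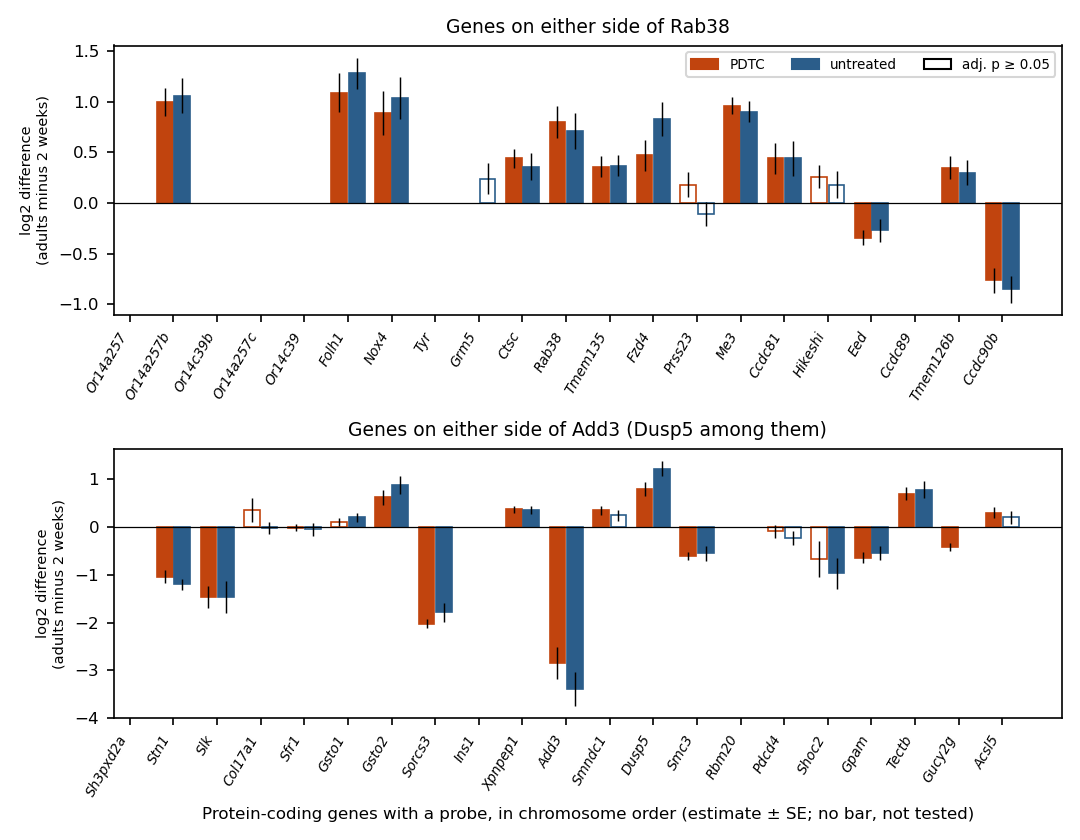
Log2 difference of adults minus 2-week pups (vertical axes, estimate ± SE) for the protein-coding genes with a probe on either side of Rab38 (upper panel) and of Add3 (lower panel), in chromosome order, in PDTC rats (orange) and untreated rats (blue). Filled bars are called, open bars are not and gaps were not tested; Add3 is the deepest bar of its panel, at -2.85 and -3.39.

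Among 8188 probes with a gene name that were above background on at least 50% of the arrays, those most like each gene were sought over the 12 group means and over the deviations of the 59 arrays from their group means. Over group means the closest to Rab38 were Doxl2, Or7g21, Aurkaip1, Slc4a5 and Shmt2 (Pearson r of 0.98 to 0.99). Those closest to Add3 were Ppip5k2, Usp45, Csgalnact1, Cdc42 and Mtdh (r of 0.99), and those closest to Dusp5 were Sec14l2, Vom2r47, Git1, Mctp2 and Ptpn1 (r of 0.97 to 0.98). With 12 points that share the ages and the slides, such values are common and are a description only. Or7g21 is named as an olfactory and Vom2r47 as a vomeronasal receptor gene, and they were above background on 57 and 58 arrays. Of 1294 probes named as olfactory, vomeronasal or taste receptors, 1.55% had a mean level at or above that of Rab38. For Dusp5 the share was 1.47%, and over all probes the shares were 37.6% and 37.5%.

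Over deviations within groups Rab38 went with Cmtm1 (r = 0.88), Klhl1, Pla2g2f, Acrbp and Slc4a5 (r of 0.85 to 0.87). Cmtm1 is best known from testis, Klhl1 from brain and Acrbp from sperm. Add3 went with Ammecr1l (r = 0.85), Cdk14, Slk, Sv2b and Nsf (r of 0.8 to 0.81), of which Slk lies close to Add3 on the chromosome. Dusp5 went less closely with Atg3 (r = 0.72), Epb41l4a, Mcfd2, Sars1 and Spr (r of 0.67 to 0.69). These deviations share the array, its slide and its signal strength.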

How the data were processed

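RNA of whole kidneys from 59 rats was hybridised to Illumina RatRef-12 arrays, 1 rat per array on 10 slides. Per the file headers, the deposited table pairs an intensity with a detection p-value for each probe and array. The values show that this deposited p-value is two-sided. A second table holds the authors' deposited log2 values, which had column medians of 6.7 to 6.71, the same rank order as the intensities on each array (rank correlation 1) and a difference of at most 0.262 from quantile-normalized log2 intensities. Scale and direction were thus settled, and genes were not centred. No source used here names the scanner software or the normalization tool.

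For each array, background was set at the median intensity of the 50 probes with the highest detection p-value, and its SD was mirrored from the intensities below it, because the planned step (neqc of limma) needs a one-sided p-value. Intensities were corrected by normexp, 16 was added, and arrays were quantile-normalized and put on the log2 scale. Probes above background on at least 4 arrays of a fit were tested with limma 3.58.1 in R 4.3.3 (lmFit and eBayes on group means, Benjamini-Hochberg over the tested probes, threshold 0.05), in 1 fit per age for treatment and sex and 1 fit per treatment for ages. The fit was tested on simulated data. Groups came from the labels, replicate numbers from accession order and slides from array names. No 2 arrays held the same values.

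The platform annotation gave 13793 probes a single gene symbol, gave 0 several, and left 8730 unnamed. Of the symbols, 13752 matched the RefSeq gene table of GRCr8 by gene ID. That table gave gene order only, since no source used here names the build behind the probes. Each gene outside the 3 was represented by its brightest probe. Named from each gene list were the 4 members with the smallest p, from the neighbours the called ones and the nearest among the 10 genes on either side, and for likeness the 5 genes with the highest correlation. The 3 genes and the lists were chosen with earlier results of these data known. The alternatives were no normexp, scaling to 1 median, no filter, the authors' log2 values, slide as a fixed or random term, 1 fit of all arrays, array weights, no slide 6 and each array left out. Comparisons share control rats, as do the 2 age steps within a treatment.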

Additional observations from a re-analysis of the deposited data

Results flagged for a closer look

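In 36 gene and group combinations, 1 array stood apart from the rest of its group by Dixon's criterion 3 times, and chance alone gives about 1 in 20. Add3 was 6.36 in untreated 2-week male 6, while the other 5 had 8.29 to 9.14. This rat's array was the only pup array on an adult slide. Add3 was 6.73 in adult PDTC female 3, while the other 4 had 4.59 to 4.69, and that array was the only one of its group above background. Dusp5 was 7.28 in adult PDTC male 3, while the other 4 had 6.7 to 6.82, and the same rat had the highest adult Add3 level, 8.05. Whether these come from the array or the animal was not tested.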

How the results depend on the processing

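Of 1845 pairs of a result and an alternative over 60 results, 1750 kept direction and side of the threshold, 66 turned the sign, 21 lost a call and 8 gained one, and the cause was not tested. Rab38 and Dusp5 stayed at or below 2.61 times background on every array, and adult Add3 lay partly at background, which limits their precision. No paired analysis was possible because the labels carry no replicate numbers, and slide was the only block that could be used. Omitting normexp or using the authors' log2 values shrank the adult minus 2-week differences without ending a call, to 0.398 and 0.393 for Rab38 and 0.401 and 0.395 for Dusp5 in PDTC rats, and to 0.648 and 0.641 for Dusp5 in untreated rats. Slide as a fixed term gave no value for that age step in PDTC rats.

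With arrays scaled to 1 median, adults minus 2 weeks was 0.0992 in PDTC and 0.0255 in untreated rats for Rab38 and 0.0471 in PDTC rats for Dusp5, and Add3 at 2 weeks minus 2 days in PDTC rats was 0.477, none called. PDTC minus untreated turned to 0.00677 for Dusp5 in 2-week females, and to 0.037 for Add3 and 0.0128 for Rab38 in adult females. The Add3 value there was also positive without normexp (0.0068), in the authors' values (0.00369) and with slide fixed (0.0469). Slide as a fixed term gave untreated adults minus 2 weeks of -1.89 (Add3), 0.317 (Dusp5) and -0.0553 (Rab38), and a called 2 weeks minus 2 days of -0.419 for untreated Dusp5, which was also called with slide random (-0.367) and with array weights (-0.385). PDTC minus untreated for Dusp5 in 2-day males turned to -0.0747 with slide fixed, -0.0214 with slide random and -0.0232 with weights. For Add3 at 2 weeks it turned to -0.0622 with slide fixed and -0.0228 with weights, and for Rab38 in 2-week males to 0.0553 with slide fixed. Array weights called Add3 for PDTC at 2 days (0.779), as 1 of 373 probes called of 13163. They also called Add3 for females minus males in PDTC adults (-1.97, or -1.74 in 1 fit of all arrays). Rab38 at 2 weeks minus 2 days in PDTC rats turned to 0.0548 with array weights. The adult minus 2-week change of the Rab38 PDTC effect turned to -0.109 with slide fixed and -0.00164 with weights. Add3 at 2 weeks minus 2 days lost its call in PDTC rats with no filter or 1 fit (0.447) and without slide 6 (0.428), and in untreated rats without slide 6 (0.8). Without slide 6, untreated Rab38 turned to 0.0278, and the 2-week minus 2-day change of its PDTC effect to -0.115.

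Leaving out 1 array at a time, Add3 at 2 weeks minus 2 days in PDTC rats ranged from 0.358 to 0.571 and lost its call in 11 of 18 cases: 2-day PDTC males 3 and 4 and females 1 and 3, and 2-week PDTC males 1, 2 and 4 and females 1, 2, 4 and 6. PDTC minus untreated for Add3 ranged from 0.57 to 0.805 at 2 days (called without untreated male 4), from -0.0587 to 0.227 at 2 weeks and from -0.426 to 0.26 in adult females. For Dusp5 it ranged from -0.03 to 0.0923 in 2-day males and from -0.166 to 0.0237 in 2-week females, and for Rab38 from -0.103 to 0.0815 in adult females. Dusp5 at 2 weeks minus 2 days in untreated rats ranged from -0.412 (called, without 2-week male 6) to -0.252, and Rab38 in PDTC rats from -0.0919 to 0.0497. Adult females minus males ranged from -0.616 to 0.161 for untreated Add3, from -0.15 to 0.0825 for PDTC Dusp5 and from -0.047 to 0.293 for untreated Rab38. The female minus male PDTC effect ranged from -0.0647 to 0.405 for Add3 at 2 days and from -0.256 to 0.032 for Rab38 at 2 weeks. The change of the Rab38 PDTC effect ranged from -0.0276 to 0.12 between 2 days and 2 weeks and from -0.00384 to 0.166 between 2 weeks and adults.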
